A study of Mus musculus with 168 samples.

Results

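Immediate early genes were examined in neurons captured by laser from mice with spinal muscular atrophy (SMA), a motor neuron disease caused by loss of the SMN protein, and from their controls. The 9 genes Fos, Fosb, Jun, Junb, Egr1, Arc, Npas4, Ier2 and Nr4a1 were chosen by name, with earlier results of these data known. Their rows were taken from a table of 39410 genes, of which 30468 had a value above 0 in some library. Immediate early genes are the ones a cell switches on first after a stimulus. Calcium entry, synaptic activity, growth factors and injury activate kinases that act on transcription factors already present, such as SRF, CREB and MEF2, so transcription starts without new protein, and the transcripts are short-lived. Fos, Fosb, Jun and Junb encode subunits of the AP-1 transcription factor, Egr1 a zinc finger factor, Npas4 a neuronal factor induced by calcium, Nr4a1 an orphan nuclear receptor and Ier2 a nuclear regulator of transcription. Arc differs from these in acting at the synapse, where its protein promotes the removal of AMPA receptors. In motor neurons Jun is best known for its rise after axon injury.

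The SMA mice were delta7 animals with the genotype Smn-/-, SMN2+/+, SMN∆7+/+, which lack mouse Smn and live on human transgenes. Controls were littermates with Smn+/+ on the same SMN2+/+ and SMN∆7+/+ background, so every mouse carried both human transgenes. The populations were the ocular neurons of cranial nerves 3 and 4, those of the facial, vagus and hypoglossal nuclei, lumbar spinal motor neurons, and red nucleus neurons, which are not motor neurons, at postnatal days 2, 5 and 10. About 150 cells were pooled in each tube and sequenced by Smart-seq2. The 15 control mice were 6, 5 and 4 animals at days 2, 5 and 10, and the 19 SMA mice 9, 5 and 5. The 168 libraries were averaged to 160 samples, each from 1 mouse and 1 population, in 36 groups of 3 to 7 mice. Some ocular tubes held only 1 of the 2 nuclei, and the 5 lumbar control libraries of day 5 include reads of an earlier deposit. Values are RPKM, read counts divided by gene length and by library depth, so levels of different genes can be set side by side.

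Depth was 0.342 M reads in the shallowest library, a red nucleus sample of control mouse 252 at day 10, and 1.44 to 16.3 M in the others, with a median of 5.89. Smn1 was at least 4.32 RPKM in controls and at most 4.24 in SMA samples, so the genotypes did not overlap. The motor neuron markers summed to 452.5 to 1966 RPKM in the motor neuron samples and to 4.15 to 100.5 in the red nucleus, where Chat, the acetylcholine synthesis enzyme, was at 0 in 7 of 11 control samples. Astrocyte and oligodendrocyte markers were present in every population and are given beside the population and age calls. In such pooled captures, fewer cells of a type and less RNA per cell cannot be told apart.

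The promoters of Fos and Jun are shown because these were the most abundant of the 9 genes and because they were ordered differently over the populations. Each stretch is the 250 bases before the RefSeq start on GRCm38.p6, read 5′ to 3′ on the gene's own strand, which is the plus strand for Fos (chr12:85473640-85473889) and the minus strand for Jun (chr4:95052223-95052472). Capitals mark matches, on either strand, to TGACG (the core of the cAMP response element that CREB binds), TGANTCA (the AP-1 site), TGACATCA (an AP-1 variant), the CArG box of SRF, and TATAAA.
Fos: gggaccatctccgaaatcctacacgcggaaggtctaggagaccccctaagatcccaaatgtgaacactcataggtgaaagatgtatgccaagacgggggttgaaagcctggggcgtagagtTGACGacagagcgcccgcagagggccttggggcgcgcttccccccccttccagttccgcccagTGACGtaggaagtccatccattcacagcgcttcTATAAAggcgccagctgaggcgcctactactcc
Jun: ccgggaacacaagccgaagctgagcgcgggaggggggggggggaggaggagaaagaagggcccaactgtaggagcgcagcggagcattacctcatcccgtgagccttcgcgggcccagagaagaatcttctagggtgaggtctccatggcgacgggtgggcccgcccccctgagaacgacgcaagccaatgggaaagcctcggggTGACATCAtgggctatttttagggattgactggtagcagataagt
Fos had TGACG at 129 and 66 bases before its start and TATAAA at 33, each counted to the first base of the match. Jun had no TGACG and had TGACATCA at 45 bases before its start. A promoter was found for 6 of the 9 genes, Fos, Fosb, Jun, Junb, Npas4 and Nr4a1, and 5 of the 6 held TGACG, against 17.8% of 32851 RefSeq windows of the same length. Fosb and Junb held 1 match each, Npas4 2 and Nr4a1 4, the nearest of them 40 bases before the start of Nr4a1 and 60 before that of Fosb. The full element TGACGTCA, which contains TGACG, was in none of the 6 windows and in 1.55% of all, TGANTCA in none and 6.75%, and the CArG box in none and 1.47%. TGACATCA was in 2.93% and TATAAA in 12.4% of all windows. The EGR site GCGNGGGCG was found in Fosb at 50 and in Nr4a1 at 60 bases before the start, and in 4.7% of all windows. These matches describe letters only. Sites farther than 250 bases before the start were not searched, so a motif missing here may still lie farther out.

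Jun was the most abundant of the 9 genes and Fosb was near the limit of detection. Over all 160 samples Jun averaged 30.1 ± 21.0 RPKM (SD), with a lowest value of 2.95 and a highest of 97.5. Fos followed at 6.59 ± 6.31 RPKM and Ier2 at 3.92 ± 3.20. Arc, Egr1 and Junb lay close together at 2.88 ± 3.25, 2.85 ± 2.57 and 2.84 ± 2.41 RPKM. Nr4a1 averaged 1.44 ± 1.40 and Npas4 0.603 ± 0.834 RPKM. Jun was therefore above every other member on this scale, by more than 4 times the mean of Fos, and it was the only one of the 9 detected in all 168 libraries. Fosb averaged 0.102 ± 0.284 RPKM and was above 0 in 43 libraries, while Npas4 was above 0 in 136. The other 6 were above 0 in 92.3% (Nr4a1) to 97% (Ier2) of libraries.

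Reads per library were recovered from the equal steps between low values. The median library held 383 reads of Jun, 59.5 of Fos, 40.5 of Egr1, 29.5 of Arc, 28 of Ier2, 24 of Junb, 14 of Nr4a1, 6 of Npas4 and 0 of Fosb. At the median depth 3 reads, the floor used for a value of 0, came to 0.242 RPKM for Fos and 0.136 for Fosb, and in the shallowest library to 4.16 RPKM for Fos. Reads were not marked by molecular identifiers, so counting error here is that of reads and not of molecules. Fosb did not pass the filter on low values (RPKM of at least 1 in as many samples as the smallest group) in any population, and Npas4 did not pass in facial, hypoglossal and lumbar neurons. All 9 genes were in the fit over the 6 populations.

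On GRCm38 (GENCODE M21) Fos lies on chromosome 12 at 85473890 to 85477273, Fosb on 7 at 19302696 to 19310051, Jun on 4 at 95049034 to 95052222 and Junb on 8 at 84974484 to 84978718. Egr1 lies on chromosome 18 at 34859823 to 34864984, Arc on 15 at 74669083 to 74672570, Npas4 on 19 at 4984355 to 4990316, Ier2 on 8 at 84661331 to 84662852 and Nr4a1 on 15 at 101254269 to 101274795. Junb and Ier2 thus share a chromosome, as do Arc and Nr4a1.

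The first question was how the populations differ without disease. In controls, 8 of the 9 genes differed over the 6 populations in limma's F test with Benjamini-Hochberg adjustment over 22270 genes, the exception being Fosb (adjusted p = 0.627), and 42.5% of all genes did. Of 135 comparisons of 2 populations, 50 passed an adjusted p of 0.05, against 16.8% of all gene comparisons. Jun passed in 14 of its 15 pairs, Fos in 9, Junb in 8, Egr1 and Arc in 7 each, Ier2 in 3, Npas4 and Nr4a1 in 1 each and Fosb in 0. The red nucleus and the vagus nucleus were the lowest pair for Fos, Jun, Junb, Egr1, Arc and Ier2. The order was otherwise different from gene to gene. Red nucleus and vagus controls also had the lowest astrocyte marker sums at each day. At day 2 these were 36.1 to 51.1 RPKM in the red nucleus and 65.2 to 122.9 in the vagus nucleus. In the other populations they were 229.1 to 463.8. Oligodendrocyte sums did not split this way, at 52.7 to 110.3 RPKM in vagus and 17.3 to 29.2 in ocular controls of day 2. The part of other cells' RNA in the population order was not tested.

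**Figure D1:**
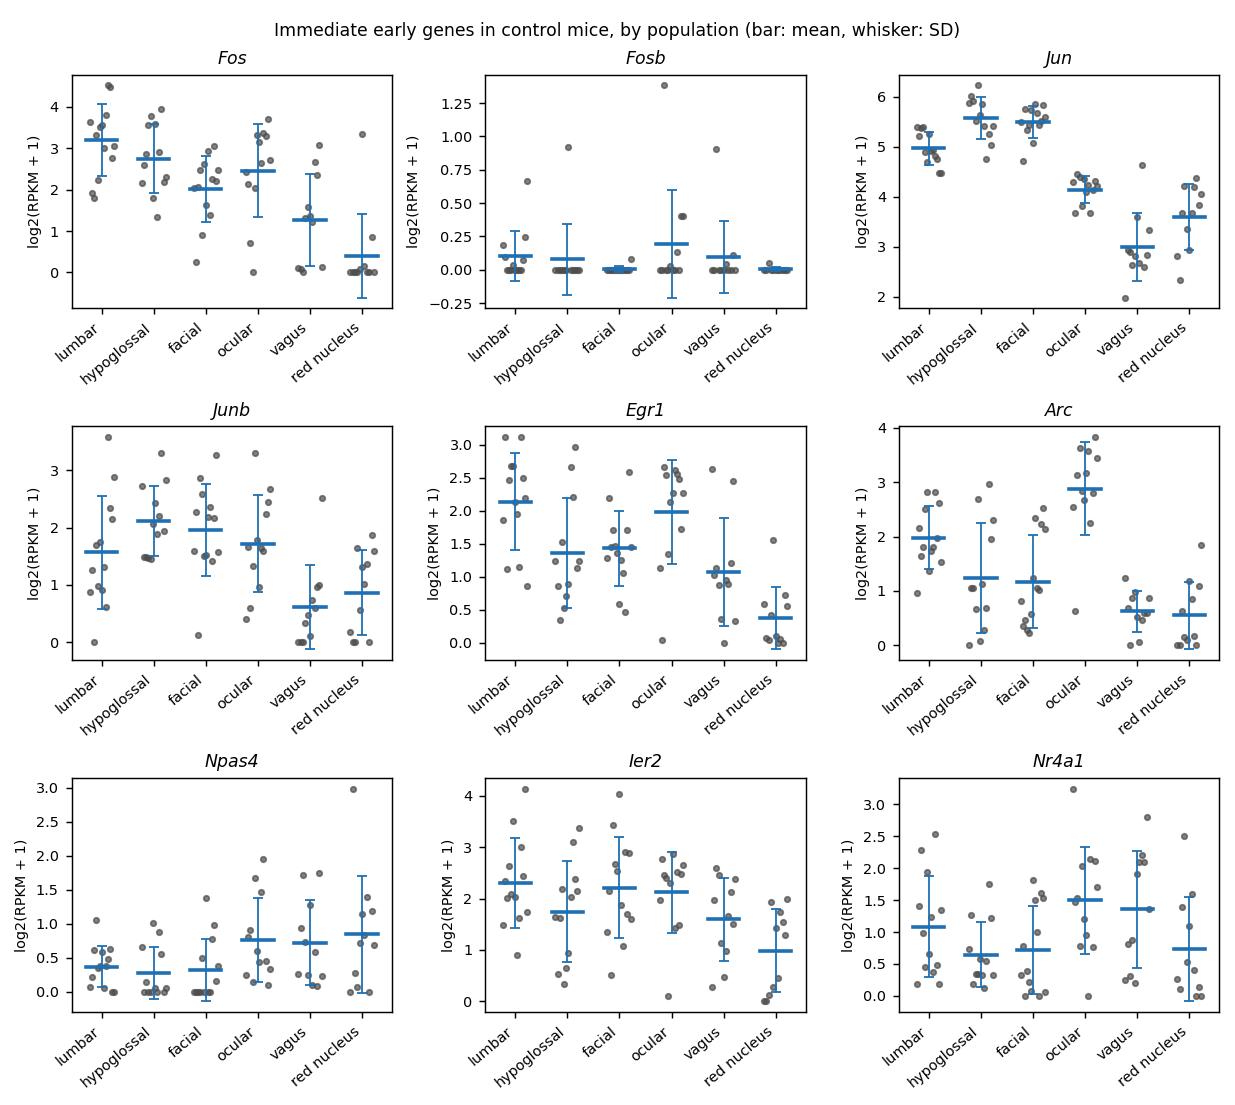
Level of each gene, as log2(RPKM + 1), in the control samples of each population, with 1 point per mouse sample, the mean as a bar and the SD as a whisker. Fos runs from lumbar down to red nucleus, Jun is highest in hypoglossal and facial neurons, and Arc is highest in ocular neurons; the vertical axes differ between panels.

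Fos, the partner of the Jun proteins in AP-1, was highest in lumbar motor neurons. The lumbar controls had a lowest value of 2.51, a median of 8.93 and a highest of 22.1 RPKM (mean 9.78 ± 6.23 SD, n = 13). Hypoglossal controls averaged 6.83 ± 4.37 (n = 12), ocular 5.78 ± 3.69 (n = 12), facial 3.59 ± 2.10 (n = 13) and vagus 2.14 ± 2.47 RPKM (n = 11). In the red nucleus 7 of 11 controls were at 0 and only 1, mouse 34 at day 5 with 9.10 RPKM, exceeded 1. On the log2(RPKM + 1) scale lumbar exceeded red nucleus neurons by 2.74 (SE 0.323, adjusted p = 2.37e-12, limma) and facial neurons by 1.14 (SE 0.309, adjusted p = 0.00721). The lumbar excess over ocular neurons, 0.74 (SE 0.314), did not pass (adjusted p = 0.103). Lumbar and hypoglossal (adjusted p = 0.460), hypoglossal and ocular (0.679), ocular and facial (0.521) and vagus and red nucleus (0.138) were neighbours whose difference did not pass, while facial exceeded vagus neurons by 0.90 (SE 0.323, adjusted p = 0.0325). The facial and vagus call was lost without mouse 28, 29, 71, 240, 252 or 254 (adjusted p up to 0.154). The shallow red nucleus library belongs to mouse 252, and without that mouse the lumbar excess over the red nucleus was 2.63.

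Jun had the most sharply separated levels. Hypoglossal controls averaged 48.7 ± 14.1 RPKM (SD, n = 12) and facial controls 45.1 ± 9.18 (n = 13), and the difference between these neighbours did not pass (log2 difference 0.07, SE 0.166, adjusted p = 0.969). Lumbar controls followed at 31.1 ± 7.22 (n = 13), ocular at 16.9 ± 3.14 (n = 12), red nucleus at 12.1 ± 5.20 (n = 11) and vagus at 7.995 ± 5.72 RPKM (n = 11). Each of these steps passed the test, from facial to lumbar by 0.54 (SE 0.163, adjusted p = 0.0210, limma), to ocular by 0.83, to red nucleus by 0.57 and to vagus by 0.61 on the log2 scale. The lowest facial control, at 25.1 RPKM, exceeded the highest ocular control, at 20.8, so that these populations did not overlap. Vagus controls were below every hypoglossal control, with a highest value of 24.0 against a lowest of 26.0 RPKM. The step from facial to lumbar was lost without mouse 28, 71, 253 or 254 (adjusted p up to 0.0669). With day 10 controls alone the step from ocular to red nucleus was -0.04.

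Junb, another Jun family subunit of AP-1, followed Jun in being highest in hypoglossal and facial neurons, at 3.70 ± 2.18 (SD, n = 12) and 3.42 ± 2.27 RPKM (n = 13). Ocular controls at 2.87 ± 2.43 and lumbar controls at 2.73 ± 3.01 RPKM followed, and no pair among these 4 passed (adjusted p for hypoglossal against lumbar = 0.230, limma). Below these 4 populations lay the red nucleus at 1.05 ± 0.980 and the vagus nucleus at 0.783 ± 1.36 RPKM (n = 11 each). All 8 of its pairs that passed set 1 of those upper 4 against 1 of these lower 2, with log2 differences from 0.73 (lumbar against red nucleus, adjusted p = 0.0343) to 1.55 (hypoglossal against vagus, 9.72e-07). The smallest of them was lost without mouse 14, 26, 28, 30, 247 or 252, and ocular against red nucleus without mouse 26, 29, 30 or 252.

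Arc, the synaptic member, was highest in ocular motor neurons, a population known to be relatively spared in SMA. Ocular controls had a lowest value of 0.547, a median of 6.99 and a highest of 13.3 RPKM (mean 7.34 ± 3.63 SD, n = 12), against 3.25 ± 1.71 in lumbar controls (n = 13). Ocular neurons exceeded all 5 other populations, by 0.90 over lumbar (SE 0.273, adjusted p = 0.0122, limma) and by 2.32 over red nucleus neurons (SE 0.285, adjusted p = 1.90e-11) on the log2 scale. The call against lumbar was lost without mouse 244 or 254 (adjusted p up to 0.0552). Hypoglossal and facial controls averaged 2.00 ± 2.28 and 1.67 ± 1.68 RPKM, and vagus and red nucleus controls 0.588 ± 0.398 and 0.606 ± 0.814. Lumbar exceeded vagus neurons by 1.35 (SE 0.281, adjusted p = 4.06e-05). Egr1, which in neurons responds to many of the same stimuli, was at similar levels in ocular and lumbar controls, at 3.39 ± 1.74 and 3.91 ± 2.25 RPKM (log2 difference 0.16, SE 0.269, adjusted p = 0.818). Egr1 was lowest in the red nucleus at 0.372 ± 0.573 RPKM (n = 11), below lumbar neurons by 1.75 on the log2 scale (adjusted p = 8.87e-08).

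The remaining genes varied less between populations. Ier2 ranged from 4.93 ± 4.31 RPKM in lumbar controls (SD, n = 13) to 1.26 ± 1.17 in the red nucleus (n = 11), a log2 difference of 1.37 (SE 0.347, adjusted p = 0.00128, limma). Its neighbours in the order lumbar, facial, ocular, hypoglossal, vagus, red nucleus had differences that did not pass (adjusted p from 0.232 to 0.963). Nr4a1 ran from 2.33 ± 2.23 RPKM in ocular to 0.668 ± 0.692 in hypoglossal controls (n = 12 each), and this pair alone passed (log2 difference 0.85, SE 0.286, adjusted p = 0.0295). It was lost without mouse 14, 29, 240, 247, 253 or 254 (adjusted p up to 0.108). Npas4 was highest in the red nucleus, at 1.21 ± 1.97 RPKM (n = 11). That mean rested on mouse 26 at day 2 with 6.89 RPKM, the median being 0.635, and the red nucleus passed only against hypoglossal neurons (0.254 ± 0.368, log2 difference 0.57, SE 0.207, adjusted p = 0.0374). That call was lost without mouse 26, 29, 71, 75, 240, 253 or 254 (adjusted p up to 0.191). Fosb was above 0 in 5 of 12 ocular and 6 of 13 lumbar controls and in 1 to 3 of the 11 to 13 controls of each other population.

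The next question was how the genes change over the first postnatal days. Of 270 comparisons of days within a population and genotype, 13 passed, 10 higher and 3 lower at the later day, a share of 4.82% against 3.55% for all genes. Each of the 13 set day 10 against day 2 or 5. Of these, 9 were among the 42 lumbar comparisons, where Junb, Arc and Egr1 rose and Jun fell. The lumbar contrasts also called the most genes of any population, 9.06% over all genes against 21.4% of the members' comparisons. Ier2, Nr4a1 and Npas4 passed in none. The library numbers in the labels ran with age, all those of day 5 being below all those of day 10. What they stand for is not stated, so age cannot be told apart from it. Median depth was also lower at day 10 than at day 5 in each population and genotype, as in lumbar SMA mice (3.40 against 7.59 M reads).

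**Figure D2:**
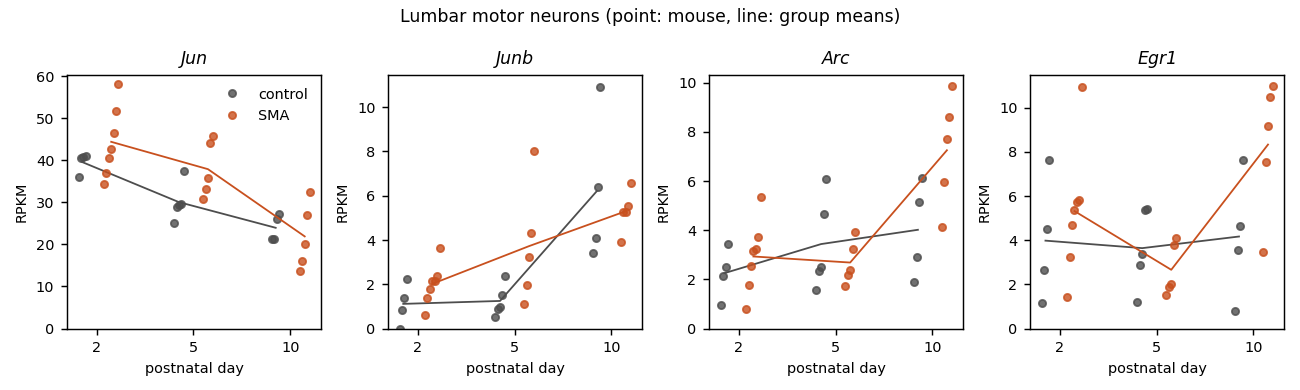
RPKM of Jun, Junb, Arc and Egr1 in lumbar motor neurons at postnatal days 2, 5 and 10, with 1 point per mouse and lines through the group means of control (grey) and SMA (orange) mice. Jun declines in both genotypes, and Junb at day 10 is above most younger samples.

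Jun in lumbar controls was 36.1, 40.5, 40.9 and 40.9 RPKM at day 2. It was 25.04, 28.9, 29.3, 29.7 and 37.4 RPKM at day 5 and 21.2, 21.3, 25.9 and 27.3 at day 10. No day 10 control reached the day 2 range. The fall from day 2 to day 10 was -0.71 in controls (log2, SE 0.202, adjusted p = 0.0182, limma), where 7.25% of all genes fell, and the call was lost without mouse 253 or 254 (adjusted p up to 0.0588). SMA lumbar neurons had a median of 42.6 RPKM at day 2 (lowest 34.3, highest 58.2, n = 7) and 13.7, 16.1, 20.1, 27.1 and 32.5 at day 10. Their fall was -1.03 from day 2 (SE 0.167, adjusted p = 4.39e-05) and -0.81 from day 5 (SE 0.181, adjusted p = 0.00297), where 9.8% and 5.4% of genes fell. Hypoglossal neurons had estimates of like size, -0.71 in controls and -0.65 in SMA mice, that did not pass (adjusted p = 0.137 and 0.115).

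Junb moved the other way. Lumbar controls were at 0, 0.833, 1.40 and 2.23 RPKM at day 2, at 0.533, 0.876, 0.980, 1.49 and 2.35 at day 5, and at 3.43, 4.09, 6.38 and 10.9 at day 10. Every day 10 control was thus above every younger control. The rise was 1.78 from day 2 (log2, SE 0.399, adjusted p = 0.00255, limma) and 1.62 from day 5 (SE 0.378, adjusted p = 0.00490), where 4.76% and 4.38% of genes rose. In SMA mice Junb was 3.91, 5.25, 5.27, 5.52 and 6.55 RPKM at day 10 against a median of 2.14 at day 2 (n = 7). All 5 exceeded the highest day 2 value of 3.66, a rise of 1.11 (SE 0.330, adjusted p = 0.0174, background 8.55%). These 3 Junb calls and the lumbar Jun calls in SMA mice held in each of 34 fits that left out a mouse, but the Junb call in SMA mice was lost with a pseudocount of 0.1 (adjusted p = 0.0758).

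Arc in lumbar SMA neurons was 4.11, 5.97, 7.69, 8.61 and 9.88 RPKM at day 10, against 1.71, 2.18, 2.38, 3.24 and 3.92 at day 5, with no overlap. The rise was 1.15 from day 5 (log2, SE 0.333, adjusted p = 0.0223, limma, background 5.56%) and 1.12 from day 2 (SE 0.308, adjusted p = 0.0104). Egr1 in the same samples went from 1.52, 1.90, 2.02, 3.77 and 4.10 RPKM at day 5 to 3.47, 7.55, 9.17, 10.5 and 11 at day 10 (log2 1.33, SE 0.424, adjusted p = 0.0399). In the controls of these days Arc and Egr1 did not pass, with Arc at 1.88, 2.92, 5.17 and 6.11 and Egr1 at 0.809, 3.58, 4.64 and 7.66 RPKM at day 10. Whether the genotypes differ in their course was tested with an F test over both age terms, and 0 of 45 tests of the 9 genes passed (3 at an unadjusted p under 0.05, 0.0344% of all genes called). The Egr1 call was lost in 7 of the 34 fits that left out a mouse, those without SMA mice 61, 76, 77, 196, 249, 250 or 258, and Arc against day 5 in 3, without 77, 249 or 250. The Egr1 call was also lost with a pseudocount of 0.1 (adjusted p = 0.0604) and without a filter on low values (0.0682).

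Glial markers moved with age in the same lumbar samples. The 6 astrocyte markers summed to 359.3 to 463.8 RPKM in day 2 controls and 831.5 to 1016 in day 10 controls, and to 405.1 to 523.9 and 937.4 to 1009 in SMA mice. The 6 oligodendrocyte markers, each of which rose in both genotypes, went from 16.9 to 46.9 RPKM in day 2 controls to 537.2 to 1176 at day 10, and from 19.4 to 123.2 to 672.6 to 993.2 in SMA mice. The motor neuron markers overlapped between these days, at 1076 to 1579 and 1201 to 1799 RPKM in controls and 1117 to 1773 and 1282 to 1462 in SMA mice. Inhibitory neuron markers went from 3.97 to 14.7 RPKM at day 5 to 19.0 to 31.6 at day 10 in lumbar SMA mice, without overlap. In the red nucleus the oligodendrocyte sum went from 17.5 to 26.6 RPKM in day 2 controls to 322.3 to 651.2 at day 10. There 0 of 48 day comparisons passed (7 at an unadjusted p under 0.05), where 3.6% of all genes did. Junb in red nucleus SMA neurons averaged 0.618 ± 1.01 RPKM at day 2 and 3.63 ± 1.26 at day 10 (SD, n = 4 each), a log2 difference of 1.64 that did not pass (adjusted p = 0.0643, limma). The part of RNA from other cells in the changes of Junb, Arc, Egr1 and Jun was not tested.

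Outside the lumbar cord Fos rose in ocular neurons, in both genotypes. Ocular controls were at 0, 0.627, 3.38 and 4.34 RPKM at day 2 and 5.54, 8.83, 9.33 and 11.99 at day 10, a rise of 1.96 without overlap (log2, SE 0.507, adjusted p = 0.0144, limma, background 4.38%). SMA ocular neurons had a median of 2.79 RPKM at day 2 (lowest 1.10, highest 5.39, n = 6) and 3.91, 10.8, 11.5, 16.0 and 16.9 at day 10, where only mouse 249 was within the day 2 range (1.69, SE 0.434, adjusted p = 0.0150, background 3.63%). The control call was lost without mouse 244 or 253 and the SMA call without mouse 258 (highest adjusted p 0.0750 and 0.0532), and the SMA call also with a pseudocount of 0.1 (0.0745). All ocular tubes of day 2 held both nuclei, while some of day 10 held a single nucleus. The sample of mouse 258, with the highest Fos of day 10 at 16.9 RPKM, was from a single nucleus. Age and nucleus are thus partly mixed here. In hypoglossal SMA neurons Egr1 was 0, 0.0413, 1.44 and 1.65 RPKM at day 5 and 2.60, 5.57, 6.93, 7.13 and 13.7 at day 10 (2.20, SE 0.482, adjusted p = 0.0148, background 1.15%), again without overlap, and the call was lost without mouse 46, 77 or 250. Arc in facial controls was 0.174, 0.213, 0.272, 0.376 and 0.764 RPKM at day 2 and 1.02, 3.42, 3.71 and 4.74 at day 10 (1.55, SE 0.464, adjusted p = 0.0481, background 2.6%). This last call was lost in 19 of the 34 fits that left out a mouse, where the adjusted p reached 0.157, and with a pseudocount of 0.1 (0.0607) or no filter (0.0793).

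Markers of other cells moved with these calls too. In ocular controls the astrocyte sum went from 229.1 to 260.2 RPKM at day 2 to 634.8 to 709.8 at day 10, and the oligodendrocyte sum from 17.3 to 29.2 to 351.3 to 502.8. In ocular SMA mice the same sums went from 228.1 to 332.7 to 419.3 to 714.3, and from 28.0 to 150.7 to 330.0 to 554.7. Facial controls went from 233.4 to 302.2 to 743.6 to 813.3 RPKM for astrocytes and from 24.1 to 42.5 to 235.3 to 275.5 for oligodendrocytes. In hypoglossal SMA mice between days 5 and 10, the inhibitory neuron markers went from 3.15 to 11.6 RPKM to 29.4 to 106.7, the oligodendrocyte markers from 45.5 to 105.7 to 250.3 to 659.7, and the astrocyte markers from 436.9 to 625.6 to 646.8 to 759.6, each without overlap. Meninges and fibroblast markers in those samples were 31.1 to 82.4 and 66.1 to 290.7 RPKM and overlapped. Their part in these calls was not tested.

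Genes of the same response, from lists written for this work, did not share one direction over these days. Over all genes tested, 4.76% rose and 7.25% fell in lumbar controls and 8.55% and 9.8% in SMA mice. In lumbar controls from day 2 to day 10, 2 of 30 other primary response genes rose (Arl4d, a small GTPase, by 1.44, and the stress sensor Gadd45b, by 1.46) and 1 fell (Myc, the growth regulator, -1.54). In lumbar SMA mice 2 of 30 rose, among them Ppp1r15a, an eIF2 phosphatase subunit, by 1.67, and Myc fell again (-1.67). Of the slower effector genes, which the early factors and CREB act on, 0 of 12 rose and 4 fell in controls, and 2 rose and 5 fell in SMA mice. Among them the protocadherin Pcdh8 fell by 2.02 and 1.78 and the granin Scg2 by 1.66 and 1.52 in controls and SMA mice, and Bdnf, the neurotrophin, by 1.04 in SMA mice. The medians over these 12 were -0.88 and -0.55, against -0.10 and -0.02 over all genes tested, and those of the 7 immediate early genes that passed the filter there were 0.60 and 0.53.

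The comparison of the genotypes came last. None of the 9 genes passed between SMA and control mice in any of the 18 contrasts of population and day: 0 of 135 tests, against 0.129% of all gene tests. At an unadjusted p under 0.05 there were 12, of which 11 had the higher level in SMA mice, a share of 8.89% against 7.10% for all genes. Fos had the higher mean in SMA mice in 16 of 18 contrasts, the exceptions being the red nucleus at day 5 and the vagus nucleus at day 10. For Junb and Egr1 it was 14 of 18, for Ier2 and Nr4a1 12, for Fosb, Jun and Arc 10, and for Npas4 8. The contrasts share mice, so these counts are no test. The median over all genes leaned slightly to SMA mice too. This median log2 difference was below 0 only in lumbar neurons at day 2 (-0.00756), and highest in the red nucleus at day 10 (0.134). Such counts of direction were not made for all genes, so the lean cannot be called particular to the 9.

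**Figure D3:**
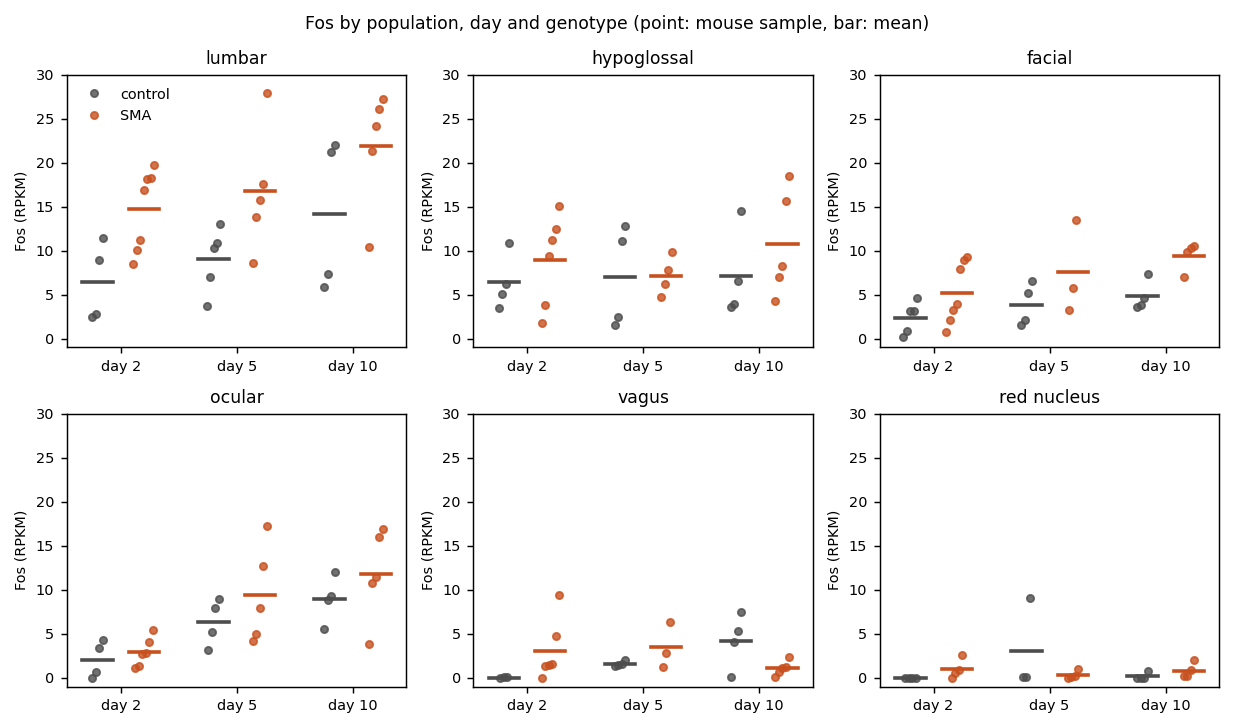
Fos in RPKM by population, postnatal day and genotype, with 1 point per mouse sample and bars at the group means. Lumbar SMA samples reach 27.9 RPKM, and at each day the lumbar groups overlap between genotypes.

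Lumbar motor neurons, which are known to be vulnerable in SMA, had the highest mean Fos in both genotypes. In controls their differences from hypoglossal and from ocular neurons did not pass (adjusted p = 0.460 and 0.103, limma). At day 2 the controls were at 2.51, 2.80, 8.93 and 11.4 RPKM and the SMA mice had a lowest value of 8.49, a median of 16.9 and a highest of 19.7 (n = 7). At day 5 controls were at 3.71, 7.03, 10.4, 10.9 and 13.02 and SMA mice at 8.59, 13.8, 15.7, 17.6 and 27.9. At day 10 controls were at 5.82, 7.38, 21.3 and 22.1 and SMA mice at 10.4, 21.3, 24.2, 26.1 and 27.2. Most SMA values lay above the control median at each day, and the ranges overlapped at each. The log2 differences were 1.24 (SE 0.390, unadjusted p = 0.00351, adjusted p = 0.647, limma), 0.83 (SE 0.394, adjusted p = 0.594) and 0.74 (SE 0.418, adjusted p = 0.589). None passed the adjusted threshold, at which 0.0122%, 0.0488% and 0.775% of genes were called at days 2, 5 and 10.

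In facial neurons Fos was 3.61, 3.77, 4.60 and 7.29 RPKM in day 10 controls and 7.01, 9.86, 10.3 and 10.6 in SMA mice, where only the ends of the ranges crossed (log2 0.87, SE 0.538, adjusted p = 0.800, limma). Vagus neurons had Fos at 0, 0.0676 and 0.0753 RPKM in day 2 controls, under the floor of 3 reads, and 0, 1.37, 1.51, 1.53, 4.72 and 9.45 in SMA mice (1.57, SE 0.599, adjusted p = 0.653). At day 10 the vagus estimate had the other sign, with controls at 0.0918, 4.11, 5.37 and 7.44 and SMA mice at 0.163, 0.658, 1.19, 1.20 and 2.38 RPKM (-1.06, SE 0.568, adjusted p = 1). Whether the genotype difference depended on population was tested at each day, and 0 of 27 tests passed (2 at an unadjusted p under 0.05, Nr4a1 and Npas4 at day 10; 0.395% of all gene tests called). Fos in those tests had adjusted p of 0.923, 1 and 0.976 at days 2, 5 and 10.

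Junb was the only one of the 9 genes with groups that did not overlap between genotypes, in 2 of the 18 contrasts. Each of the other genes had 0 of 18 such contrasts. Over all genes tested 3.06% of contrasts did not overlap, and 2.95% and 3.0% in these vagus and hypoglossal contrasts. Junb was named after all 9 were seen, so its 2 contrasts do not set the 9 genes apart from that share. In hypoglossal neurons at day 5 controls had 1.75, 2.69, 3.20 and 4.40 RPKM and SMA mice 6.59, 7.34, 7.60 and 8.72 (log2 1.13, SE 0.388, adjusted p = 0.712, limma). Inhibitory neuron markers did not overlap in these samples either, at 11.7 to 21.7 RPKM in controls and 3.15 to 11.6 in SMA mice. The other marker sums overlapped, and the part of other cells was not tested. In vagus neurons at day 2 all 3 controls were at 0 and the 6 SMA mice were at 0.607 to 1.63 RPKM (0.92, SE 0.377, adjusted p = 0.662), with a control floor of 0.232 to 0.259. In lumbar neurons at day 5 Junb averaged 1.25 ± 0.708 RPKM in controls and 3.72 ± 2.68 in SMA mice (SD, n = 5 each), a difference of 0.95 (SE 0.357, adjusted p = 0.448). Egr1 and Arc at day 10 in lumbar neurons averaged 8.34 ± 3.03 and 7.25 ± 2.26 RPKM in SMA mice against 4.17 ± 2.83 and 4.02 ± 1.95 in controls (n = 5 and 4), with adjusted p of 0.446 and 0.455. The exception in sign at an unadjusted p under 0.05 was Nr4a1 in day 10 vagus neurons, at 1.57, 3.26, 3.62 and 5.97 RPKM in controls and 0, 0.102, 0.797, 1.01 and 1.73 in SMA mice (-1.43, SE 0.488, adjusted p = 0.870). In the same samples Npas4 was on the other side, at 0.0600, 0.177, 0.504 and 2.35 RPKM in controls and 0.925, 1.26, 1.89, 3.39 and 3.39 in SMA mice (0.92, SE 0.406, adjusted p = 1).

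Since Fos leaned the same way in most contrasts, the mice were also compared as whole animals, a test chosen after these values were seen and so no independent evidence. For each mouse and gene, the deviation from the midpoint of both genotype means in each population and day was averaged over the 1 to 6 populations sampled from it. Fos deviations were above 0 in 16 of 19 SMA mice and in 6 of 15 controls. The SMA mice had a lowest value of -0.19, a median of 0.30 and a highest of 1.46, and the controls a lowest of -0.81, a median of -0.16 and a highest of 0.34 (log2). All 9 SMA mice of day 2 were above 0, as against 2 of 6 controls, and the genotypes overlapped at each day. The genotype difference in Fos was 0.54 (SE 0.147, adjusted p = 0.0419 over 22270 genes, limma), where 2.04% of genes were called. It was lost in 8 of the 34 fits that left out a mouse, those without control mice 26, 28, 29, 75, 240, 244 or 254 or SMA mouse 196, where the adjusted p rose to at most 0.130. Junb (0.31, SE 0.0881, adjusted p = 0.0521) and Egr1 (0.34, SE 0.115, adjusted p = 0.116) did not pass, nor did the other 6, with estimates from 0.04 for Npas4 to 0.23 for Ier2. The median estimate over all genes was 0.04, so Npas4 and Fosb (0.05) lay close to it.

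**Figure D4:**
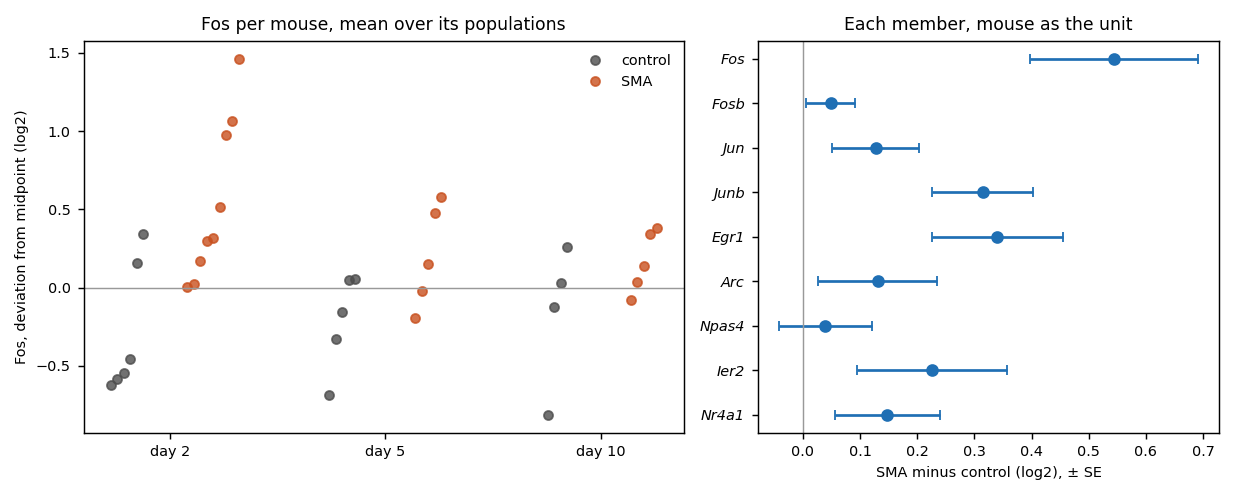
Left, Fos in each mouse as its mean deviation (log2) from the midpoint of the genotype means, by postnatal day; right, the genotype difference (SMA minus control, log2, ± SE) of each gene with the mouse as the unit. SMA mice lie mostly above 0, and the 9 estimates run from 0.04, the median over all genes, upward, with Fos alone past the threshold.

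Treating the samples of 1 mouse as a block gave a Fos difference of 0.53 over all days and populations (SE 0.136, adjusted p = 0.0102, 3.52% of genes called). Within that fit lumbar (0.94, SE 0.290, adjusted p = 0.201) and facial neurons (0.82, SE 0.311, adjusted p = 0.230) had the largest Fos estimates and the red nucleus the smallest (0.21, SE 0.327), and no single population passed. Across the 160 samples the deviations of Fos from its group means had r = 0.226 with motor neuron markers, 0.00847 with astrocyte markers, -0.0498 with oligodendrocyte markers and 0.0828 with microglia markers. It was 0.181 with red nucleus markers, -0.134 with inhibitory neuron markers, 0.0984 with meninges and fibroblast markers, -0.0437 with vessel markers and -0.0576 with blood markers. This is a description over samples that share mice. Taking out the group means also took out the genotype difference, so these correlations cannot bear on it. The part of other cells' RNA in the Fos difference was not tested.

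Among upstream factors and kinases 0 of 306 and 0 of 300 genotype tests were called (22 and 12 at an unadjusted p under 0.05, limma), which at 0.129% over all genes does not set them apart. Among other primary response genes 2 of 537 tests were called and both were Btg2, an antiproliferative gene. Btg2 was 15.7 ± 2.80 RPKM in SMA and 3.76 ± 2.32 in control facial neurons at day 10 (SD, n = 4 each; log2 1.94, SE 0.465, adjusted p = 0.0453). In lumbar neurons at day 10 Btg2 was 6.87 ± 3.28 (n = 5) and 1.43 ± 1.39 RPKM (n = 4; 1.82, SE 0.419, adjusted p = 0.0274). Among the slower effectors 5 of 210 tests were called, each of them Plk2, a kinase of synaptic scaling, which was higher in SMA mice in facial neurons at day 5 (1.69) and day 10 (2.32) and at day 10 in hypoglossal (1.96), lumbar (2.30) and ocular neurons (2.97). Btg2 and Plk2 are also known as targets of p53. In the same facial samples of day 10 the astrocyte gene Gfap was 17.0 ± 4.88 against 1.63 ± 0.991 RPKM (2.81, adjusted p = 0.00742), and its part in these differences was not tested. Gfap is 1 of 6 astrocyte markers, and it gave the only call in their 108 genotype tests. The sum of the 6 in these samples was 527.0 to 798.9 RPKM in SMA mice and 743.6 to 813.3 in controls. The myelin gene Mbp was the other glial marker called, in red nucleus neurons at day 2. It was at 13.9 ± 4.12 RPKM in SMA and 2.55 ± 1.64 in control mice (SD, n = 4 each, log2 2.22, adjusted p = 0.0351, limma). Mbp is 1 of 6 oligodendrocyte markers and gave their only call between genotypes, so it does not show a difference of the 6 as a set.

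The 9 genes varied little together from sample to sample within groups. Across the 160 samples, after the group mean was taken from each, the 36 pairs of genes had a median correlation of 0.0473, from -0.17 to 0.218, and 27 were above 0. Arc had the highest correlation with the mean of the other 8 (0.307) and Npas4 the lowest (-0.0577). These samples share mice, and most of the genes had few reads. The share of the spread within groups that lay between mouse means was 15.9% for Nr4a1 to 27.1% for Jun, around a median of 23.4% over all genes. This share was not corrected for the few samples per mouse. Unrelated samples would also give a share above 0, so it does not measure an effect of the animal. The consensus correlation of samples of 1 mouse was 0.0366. The genes whose deviations were most like the mean of the 9 (mean RPKM of at least 1) were Prrc2a (r = 0.385), Creg2 (0.373), Igf1r (0.369), Mctp1 (0.365), Rpph1 (0.353), Gcc1 (0.340), Gatad2b (0.338), Pop4 (0.337), Taf15 (0.333) and AY036118 (0.333). The median over 14075 genes was 0.0310, and of the listed genes Vgf among the slower effectors (0.306) and Btg2 among the primary response genes (0.261) came closest. The highest of 14075 values stand well above the median by chance too. No test was made, so these names are a ranking and not a set of partners.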

How the data were processed

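The authors deposited 1 table of RPKM values per gene and library, per the file headers, made by Smart-seq2 sequencing of laser-captured neurons. The submitters' processing notes list STAR 2.4.1c and the builds mm10 and hg19, without their roles; the read counter, annotation and use of strand are not given in the sources used here, so reads of overlapping or antisense genes cannot be told apart. Where a mouse gave several libraries of a population their RPKM were averaged, and log2(RPKM + 1) was fitted with limma 3.58.1 (lmFit and eBayes with trend, R 4.3.3), which was tested on simulated data. Genes needed an RPKM of at least 1 in as many samples as the smallest group of the fit. Genotype, day and their interaction were tested in 1 fit per population, and populations in 1 fit of all 36 groups. Tests were two-sided except F tests, with Benjamini-Hochberg adjustment over all genes of a contrast and a threshold of 0.05. Mice are the replicates, each labelled as its own animal.

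Samples of the same mouse share an animal, which is the pairing in the block fits; their consensus correlation was 0.0366. The highest correlation of 2 libraries was 0.967, so none was treated as a repeat deposit. Depth was recovered from the steps between low values of 17340 single-transcript genes, values being taken as whole reads within 0.05. A value of 0 was set against a floor of 3 reads. Described without a test were overlaps, marker sums, correlations of deviations from group means, and RefSeq promoter windows (GRCm38.p6), in which Egr1, Arc and Ier2 were not matched.

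Genes named are the 9 members, Smn1, listed genes that passed between genotypes, up to 4 others per list, marker genes named after their values were seen, and the 10 genes with the most similar deviations. The members and lists were chosen with earlier results of these data known. Both tests that pool populations were chosen after seeing the data. Alternatives were another pseudocount (0.1), no filter, quantile normalization, single libraries, only the groups compared, a replicate block, controls of 1 day and leaving out each mouse. The genotype contrasts of day 2 were also run without controls whose library numbers were above 200. Values were read with Python 3.11.15 and pandas 2.3.3.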

Additional observations from a re-analysis of the deposited data

Results flagged for a closer look

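In groups of 4 to 7 mice, 17 sets of values for the 8 genes other than Fosb had 1 mouse far from the rest (Dixon's test at 95%), 13 of them high and 4 low. That is 6.64% of the sets examined, near the 5% that chance alone gives, and Fosb was not examined, since most of its values were 0. No explanation was tested for any of them.

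Fos was low in lumbar SMA mouse 199 at day 10, at 10.42 RPKM against 21.3 to 27.2 in the other 4. In the red nucleus of day 10 controls Fos was 0.8119 RPKM in mouse 253 and 0 in the others, among them the shallowest library, where the floor was 4.16 RPKM. Jun was low in lumbar control mouse 28 at day 2, at 36.06 RPKM against 40.5 to 40.9.

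Mice 26, 34, 206 and 244 stood apart in 2 populations each. Hypoglossal control mouse 26 at day 2 had Junb at 5.64 RPKM, the others 1.77 to 1.81. Red nucleus neurons at day 2 had Junb at 2.128 RPKM in SMA mouse 209 (others up to 0.194) and at 2.127 in control mouse 244 (others up to 0.136), and the same control sample had Ier2 at 2.795 RPKM (others up to 0.0918). Egr1 was 5.328 RPKM in hypoglossal control mouse 75 at day 5 (others 0.442 to 0.847), 3.639 in red nucleus SMA mouse 206 at day 2 (others up to 0.248), and low in ocular SMA mouse 249 at day 10, at 3.211 against 5.62 to 6.69. Arc reached 2.073 RPKM in vagus SMA mouse 18 at day 2, with the others at up to 0.155. Ier2 was low in ocular control mouse 252 at day 10, at 1.815 RPKM against 4.58 to 5.25.

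Npas4, induced by calcium entry and near 0 in most samples, gave 5 of the 17. The values were 0.4045 RPKM in facial control mouse 244 at day 2 and 1.605 in facial control mouse 34 at day 5, where the others were at 0. Hypoglossal neurons of the same mouse 34 had 1.004 RPKM (others up to 0.0392). Ocular SMA mouse 206 at day 2 had 0.7045 (others up to 0.185) and red nucleus control mouse 26 at day 2 had 6.892 RPKM (others up to 0.213).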

How the results depend on the processing

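Within single populations and days, 0 comparisons of SMA with control passed for the 9 genes in every alternative run, and 0 interactions with day or population. Fos passed in both tests that pool populations. Of these, the test with the mouse as the unit was rerun only without each mouse, and the block test was not rerun. The other pseudocount, no filter, quantile normalization and single libraries were not applied to either, so their effect on the pooled Fos difference is not known. The number of day comparisons that passed was 13, and 10 to 14 under the other settings and 9 to 14 in fits without 1 mouse. Under a pseudocount of 0.1 the calls of Arc in facial controls, Egr1 in lumbar, Fos in ocular and Junb in lumbar SMA mice were lost, and without a filter those of Arc and Egr1. Population pairs that passed numbered 50, and 46 to 54 without 1 mouse; with controls of day 2, 5 or 10 alone they were 25, 26 and 25 of 120, from fewer samples. The F test over populations called 8 genes, 6 to 8 without 1 mouse, and 5 and 5 with controls of day 2 or day 5 alone. Jun in ocular against red nucleus neurons reversed to -0.037 with day 10 controls alone, and the cause was not tested. Of 2607 alternative values of the 63 single calls, 2432 kept direction and threshold, and all but that reversal of the rest kept direction and lost the threshold.

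With the mouse as replicate block, 51 population pairs and 8 genes over populations passed, and 0 genotype comparisons within a population and day; it moved no count by more than 1.5 times. The Fos difference with the mouse as the unit was 0.4926 to 0.5987 without 1 mouse, past the threshold in 26 of 34 fits. Depth limits what can be seen of genes at a few reads, most of all in the shallowest library, and the difference of a gene below the floor was not detectable.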
